A study of Mus musculus with 6 samples.

Results

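The genes described here are 35 mouse genes of fatty acid oxidation and of its regulation by the peroxisome proliferator-activated receptors (PPARs). They were chosen by name from the deposited gene table, which lists 27240 genes, and each of the 35 had a single row. Poly(A) RNA was sequenced from peritoneal macrophages, phagocytes that live in the abdominal cavity, taken as primary cells in 3 knockout (KO) and 3 wild-type (WT) libraries. KO and WT cells alike had been given oxidised low-density lipoprotein (oxLDL), and untreated cells were not analysed here. The labels do not name the gene that was knocked out, the promoter or allele used, or the animals' age, while the series title names the kinase DCLK1. Whether the replicates are different animals or cultures is not stated either, and a p-value here therefore rests on the spread between libraries, which may be technical. The extraction protocol in the labels speaks of an adipose RNA, while every sample is labelled as macrophages, and markers of both are given below.

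Macrophages that take up oxidised lipoproteins receive cholesterol and fatty acids, and fatty acids are either stored in lipid droplets or broken down. Long-chain fatty acids are activated by acyl-CoA synthetases, carried into mitochondria as carnitine esters and shortened by repeated cycles of dehydrogenation, hydration, a further dehydrogenation and thiolysis, while peroxisomes handle very long and branched chains. PPARα, PPARγ and PPARδ are nuclear receptors for fatty acids and their derivatives that bind DNA together with retinoid X receptors and switch on many of these genes. PPARγ and PPARδ are the forms known from mouse macrophages.

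None of these members passed the test between KO and WT. Of the 35 members, 33 passed the filter on low counts, and 0 of them had an adjusted p under 0.05 in edgeR's quasi-likelihood test, against 0.0677% of all 16239 genes tested (0.0246% higher and 0.0431% lower in KO). DESeq2 and limma also called 0 members. Only 1 member, Hadhb, had an unadjusted p under 0.05, as had 10.4% of all genes. The lowest adjusted p among members was 0.477. The groups did not overlap for 6 of the 33 members (18.2%), 2 higher and 4 lower in KO, and for 17.6% of all genes tested. Of the 33, 20 had a fitted value above 0 and 13 below 0, and among all genes 49.5% were above 0. The median log2 fold change of KO over WT was 0.03 over the members and -0.00187 over all genes tested, and the median absolute log2 fold change was 0.06 and 0.13. Members and all genes were not matched for expression level, so the absolute values do not compare like with like. These 33 are the members with enough counts to test, not all members.

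The width of the intervals shows which sizes of difference these libraries leave possible. The 95% interval of the fold change lay within 1.5-fold in either direction for 28 of the 33 members and within 2-fold for 32. The 5 members whose interval reached past 1.5-fold were Ppard, Acsl1, Acsl3, Ehhadh and Angptl4, and that of Acsl1 also reached past 2-fold. Summed over the 35 members, the level was 2365 ± 88.1 CPM in KO and 2422 ± 75.5 CPM in WT (SD, n = 3 each), where CPM is the count scaled to a common library size after TMM (trimmed mean of M-values) adjustment.

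**Figure D1:**
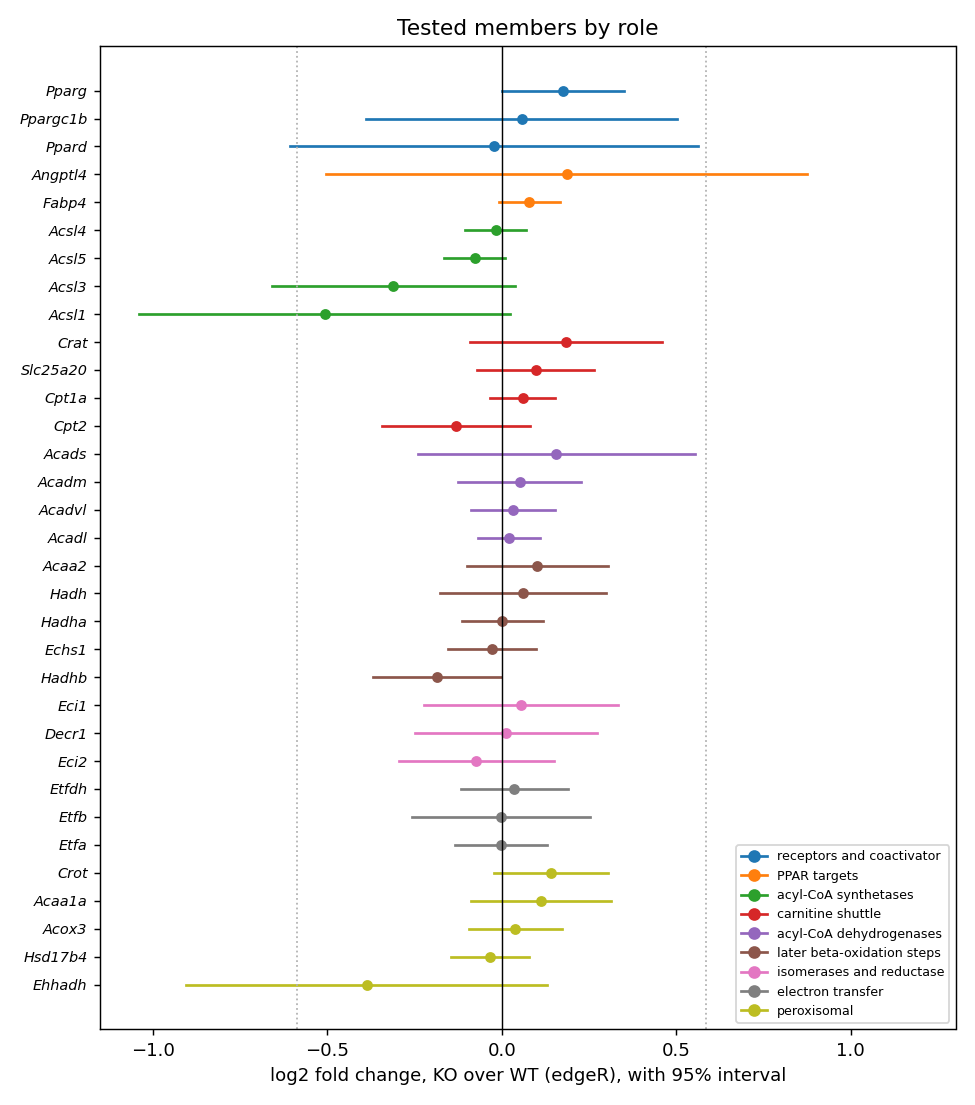
Log2 fold change of KO over WT with its 95% interval (edgeR) for the 33 tested members, grouped and coloured by role; the dotted lines mark a fold of 1.5 in either direction. Most intervals cross 0 and 28 of 33 lie between the dotted lines, with the widest at Acsl1, Ppard and Angptl4.

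Pparg (ENSMUSG00000000440, chromosome 6, 115360951 to 115490399, plus strand, coordinates as deposited and taken as GRCm38) encodes PPARγ, the receptor tied to lipid uptake and foam cell biology. It was at 43.4, 40.1 and 38.8 CPM in KO libraries 1, 2 and 3, against 34.0, 39.1 and 35.3 CPM in WT libraries 1, 2 and 3. The KO values were mostly the higher ones, but WT library 2 lay above KO library 3. The fold was 1.13, and its 95% interval reached up to 1.28 and down to just under no difference (edgeR adjusted p = 0.480). Leaving out single libraries gave log2 fold changes between 0.13 and 0.24.

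Ppard (chromosome 17, 28232700 to 28301474, plus strand) encodes PPARδ, which responds to fatty acids released from lipoproteins. Its level was 66.0, 115 and 71.7 CPM in KO libraries and 70.5, 74.3 and 112 CPM in WT libraries. In each group 1 library, KO 2 and WT 3, lay far above the other two, and the groups overlapped fully. The fold was 0.984, with a wide interval of 0.657 to 1.48 (edgeR adjusted p = 0.989), and its sign turned with the library left out, between -0.32 and 0.22 on the log2 scale.

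Ppara encodes PPARα, the main regulator of fatty acid oxidation in liver. It had 4, 0 and 0 counts in KO libraries and 0, 4 and 0 counts in WT libraries and was not tested. Ppargc1b encodes PGC-1β, a coactivator of mitochondrial genes. It was at 6.46, 5.10 and 5.82 CPM in KO libraries, against 6.32, 6.20 and 4.18 CPM in WT libraries, with the lowest value in WT 3 and overlapping groups (edgeR adjusted p = 0.949).

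On the deposited FPKM scale, which divides by a gene length, Pparg took 55.8% ± 8.02 of the summed receptor FPKM in KO and 52.2% ± 6.84 in WT (SD, n = 3 each). Ppard took 44.2% ± 8.05 in KO and 47.7% ± 6.86 in WT, and Ppara the remaining 0.0187% and 0.0191%. The FPKM of Pparg ranged from 11.9 to 13.3 in KO and from 10.3 to 11.8 in WT, and that of Ppard from 7.93 to 13.8 in KO and from 8.42 to 13.4 in WT, so the order of these receptors was not settled beyond their spread. Their order also depends on the length used. Per kilobase of the longest coding transcript, Ppard stood above Pparg, at 25.7 against 19.2 CPM per kb in KO and 26.2 against 17.0 in WT.

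PPARs bind pairs of the hexamer AGGTCA. The RefSeq promoter table of build GRCm38.p6, with 250 bases before and 50 after each gene's start, held 28 of the 35 members, and 6 of their 31 promoters held the single hexamer on either strand (19.4%), against 16.3% of all 32851 promoters. A direct repeat of the hexamer with 1 base between the copies, the classic PPAR element, was found in 0 of the 31 member promoters and in 0.0396% of all promoters, and TCAAGGTCA, which contains the hexamer and is bound by estrogen-related receptors, in 0 of 31 and in 0.423%. The matches describe these windows only. The stretches round the hexamer, in capitals (TGACCT is the same hexamer on the other strand), are shown because they are the only such letters in the members' promoters, and each reads 5′ to 3′ along its gene.
Pparg, upstream start (chr6:115361089-115361148, plus strand): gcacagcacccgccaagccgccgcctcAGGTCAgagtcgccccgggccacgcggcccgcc
Pparg, next start (chr6:115362313-115362372, plus strand): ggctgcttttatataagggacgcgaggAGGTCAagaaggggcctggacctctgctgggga
Cpt1a (chr19:3323180-3323239, plus strand): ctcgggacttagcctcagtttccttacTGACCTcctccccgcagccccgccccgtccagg
Acadvl (chr11:70015483-70015542, minus strand): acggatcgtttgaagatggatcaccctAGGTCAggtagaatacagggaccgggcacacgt
Echs1 (chr7:140116472-140116531, minus strand): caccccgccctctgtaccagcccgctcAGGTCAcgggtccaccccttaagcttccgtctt
Acadm, at the window edge (chr3:153944860-153944893, minus strand): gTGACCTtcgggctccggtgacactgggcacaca

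The direct PPAR targets ranged from abundant to nearly undetected. Fabp4 (chromosome 3, 10204088 to 10208576, minus strand) encodes a fatty acid binding protein of macrophages and adipocytes that PPARγ induces. It was at 274, 277 and 266 CPM in KO libraries, against 252, 264 and 258 CPM in WT libraries. Each KO value lay above each WT value, but by little, with a fold of 1.06 (log2 fold change 0.08, 95% interval -0.01 to 0.17; edgeR adjusted p = 0.528). In bulk RNA, fewer cells of a type and less RNA per cell cannot be told apart. Of 8 adipocyte markers, 3 were analysed here. Their summed level was 8.67 ± 1.29 CPM in KO and 10.0 ± 1.48 CPM in WT (SD, n = 3 each). Almost all of it was Lipe, so the sum describes 1 gene rather than a set. Slc2a4 had 4, 0 and 14 counts in KO libraries and 0, 43 and 0 counts in WT libraries. Retn had 8, 0 and 0 counts in KO and 0 in every WT library. The part of such cells in the Fabp4 level was not tested.

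Angptl4, which encodes an inhibitor of lipoprotein lipase and is a classic target of PPARδ in macrophages, had 83, 124 and 149 counts in KO libraries and 110, 112 and 89 counts in WT libraries. The groups overlapped, and the fold of 1.14 had an interval of 0.706 to 1.83 (edgeR adjusted p = 0.884). Pdk4 encodes a kinase that shuts pyruvate out of the citric acid cycle and is strongly induced by PPARs in muscle and liver. It had 4, 0 and 4 counts in KO libraries and 4, 0 and 4 counts in WT libraries, and no fold is given at such a level.

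The long-chain acyl-CoA synthetases, which activate fatty acids, all had fitted values below 0, though none passed the test. Acsl1 (chromosome 8, 46471037 to 46536051, plus strand), the form known to be induced in inflammatory macrophages, was at 193, 288 and 166 CPM in KO libraries, against 290, 382 and 247 CPM in WT libraries. The 2 lowest values were KO and the 2 highest were WT, but KO library 2 lay above WT library 3. Its fold of 0.704 was the farthest from 1 among tested members, with an interval of 0.487 to 1.02 (log2 fold change -0.51, SE 0.23; edgeR adjusted p = 0.50). Without single libraries the log2 fold change lay between -0.78 and -0.32 (adjusted p = 0.339 to 0.744). With the replicate number as a block the edgeR adjusted p was 0.143, the lowest of 15 alternative fits. The replicate numbers are not stated to pair the libraries. An antisense gene, Gm45244, shares 1039 exonic bases with Acsl1, and whether counting used strand is not given in the sources used here.

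Acsl3, which is linked to lipid droplet formation, was at 3.86, 4.99 and 3.92 CPM in KO libraries and 5.03, 5.34 and 5.47 CPM in WT libraries. The groups did not overlap, with a fold of 0.807 and an interval of 0.633 to 1.03 (edgeR adjusted p = 0.536). Acsl5, found at mitochondria and the endoplasmic reticulum, was at 162, 159 and 157 CPM in KO libraries and 168, 167 and 170 CPM in WT libraries. These groups did not overlap either, with a fold of 0.948 (interval 0.892 to 1.01). Acsl4, which prefers arachidonic acid, was at 210 ± 1.99 CPM in KO and 213 ± 5.11 CPM in WT (SD, n = 3 each), a fold of 0.988 (interval 0.930 to 1.05). Of the summed FPKM of these synthetases, Acsl4 took 41.9% in KO and 37.8% in WT, Acsl5 35.3% and 33.2%, Acsl1 21.8% and 27.8%, and Acsl3 1.04% and 1.15%. This order depends on the length used: per kilobase of the longest coding transcript, Acsl1 stood first, at 55.3 CPM per kb in KO and 78.6 CPM per kb in WT, above Acsl4 at 39.8 and 40.3 and Acsl5 at 37.6 and 39.7 CPM per kb. Summed counts of the 4 synthetases were 590 ± 63.4 CPM in KO and 693 ± 63.8 CPM in WT (SD, n = 3 each). The summed FPKM ranged from 79.4 to 89.9 FPKM in KO and from 89.7 to 98.5 FPKM in WT, so the groups just overlapped.

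**Figure D2:**
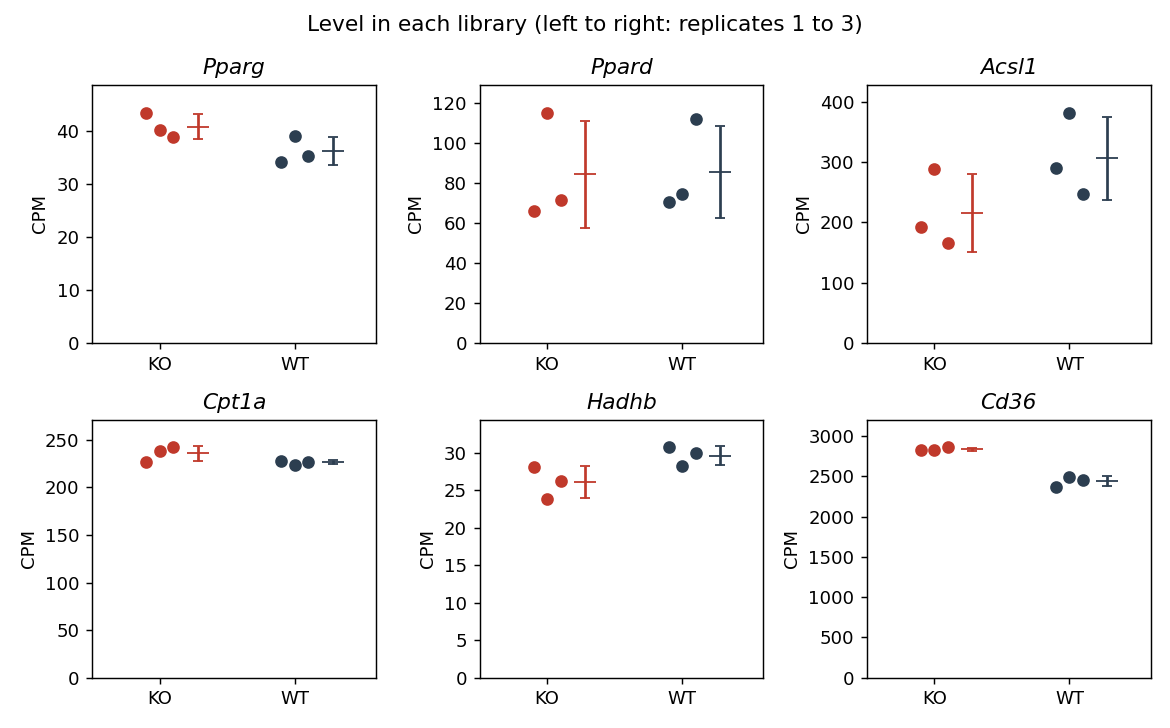
CPM of Pparg, Ppard, Acsl1, Cpt1a, Hadhb and Cd36 in each library, KO left of WT; points run from replicate 1 to 3, and the bar beside them gives the mean and SD (n = 3). Ppard and Acsl1 spread widely within each group, whereas Cd36 lies between 2826 and 2862 CPM in KO and between 2372 and 2497 CPM in WT.

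The carnitine shuttle moves acyl groups across the mitochondrial membranes. Cpt1a (chromosome 19, 3322334 to 3385733, plus strand) encodes the carnitine palmitoyltransferase of the outer membrane, the rate-limiting step of mitochondrial fatty acid oxidation. It was at 227, 239 and 242 CPM in KO libraries, against 228, 224 and 227 CPM in WT libraries. KO libraries 2 and 3 lay above all WT libraries and KO library 1 lay among them, with a fold of 1.04 (interval 0.977 to 1.11; edgeR adjusted p = 0.666). The hexamer in its promoter stands 94 bases before the RefSeq start.

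Slc25a20, the carnitine-acylcarnitine exchanger of the inner membrane, was at 27.3, 28.8 and 28.5 CPM in KO libraries and 28.4, 24.9 and 25.7 CPM in WT libraries, a fold of 1.07. Cpt2, which restores acyl-CoA on the matrix side, was at 14.7, 17.3 and 15.1 CPM in KO libraries and 17.9, 17.4 and 16.3 CPM in WT libraries, a fold of 0.913. Crat, which buffers acetyl-CoA as acetylcarnitine, was at 48.3, 59.8 and 59.4 CPM in KO libraries and 50.5, 54.6 and 42.3 CPM in WT libraries, a fold of 1.14. The groups overlapped for all of these, and the edgeR adjusted p lay between 0.649 and 0.704.

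The acyl-CoA dehydrogenases, which open each cycle and differ in the chain length they prefer, lay close to WT apart from the short-chain form, whose libraries spread widely. Acadl (chromosome 1, 66830839 to 66863277, minus strand), the long-chain form, was at 178, 176 and 181 CPM in KO libraries and 172, 177 and 178 CPM in WT libraries. With a fold of 1.01 its interval was 0.954 to 1.08. Acadvl, the very-long-chain form, was at 38.0 ± 0.232 CPM in KO and 37.2 ± 0.787 CPM in WT, and Acadm, the medium-chain form, at 37.5 ± 2.90 CPM in KO and 36.2 ± 1.85 CPM in WT (SD, n = 3 each). Acads, the short-chain form, was at 16.9, 25.8 and 23.9 CPM in KO libraries and 17.9, 18.9 and 23.0 CPM in WT libraries. KO 1 was its lowest library and KO 2 its highest, so its interval was wide, at 0.847 to 1.47. The 4 fitted values were above 0 and the edgeR adjusted p lay between 0.811 and 0.901. Acadvl shares 1151 exonic bases with the antisense gene Dvl2, so its level is uncertain if counting did not use strand.

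Hadha and Hadhb encode the alpha and beta subunits of the mitochondrial trifunctional protein, which carries out the remaining steps of the cycle on long chains. They lie head to head on chromosome 5, Hadha on the minus strand (30118304 to 30155162) and Hadhb on the plus strand (30155248 to 30184593), with 85 bases between the deposited gene starts. That stretch, in capitals below, is shown because both genes of the complex start from it.
Hadhb promoter (chr5:30155003-30155302, plus strand): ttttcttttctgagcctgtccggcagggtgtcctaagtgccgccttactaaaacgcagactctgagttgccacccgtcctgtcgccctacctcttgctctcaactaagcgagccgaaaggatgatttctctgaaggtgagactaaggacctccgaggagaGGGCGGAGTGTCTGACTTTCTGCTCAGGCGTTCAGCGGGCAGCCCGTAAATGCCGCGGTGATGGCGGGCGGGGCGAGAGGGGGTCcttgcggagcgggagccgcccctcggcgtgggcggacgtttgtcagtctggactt
Hadha was at 101, 94.5 and 103 CPM in KO libraries, against 101, 99.9 and 97.0 CPM in WT libraries, a fold of 1.002 (interval 0.924 to 1.09; edgeR adjusted p = 0.994). Hadhb was at 28.1, 23.9 and 26.2 CPM in KO libraries, against 30.7, 28.2 and 29.9 CPM in WT libraries. Each KO value of Hadhb lay below each WT value, but KO 1, at 28.13 CPM, and WT 2, at 28.23 CPM, were nearly equal. Hadhb had a fold of 0.880 (log2 fold change -0.18, interval -0.37 to -0.00064). It had the smallest unadjusted p of the members, 0.0494, and an edgeR adjusted p of 0.477, which lay between 0.438 and 0.721 without single libraries. Of the 50-base sequences of Hadhb, 18.1% also occur in the processed pseudogene Gm13910, so reads could be split between them and the count is uncertain.

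The matrix enzymes that act on shorter chains gave overlapping groups. Echs1, the short-chain enoyl-CoA hydratase, was at 96.7 ± 4.90 CPM in KO and 98.5 ± 3.18 CPM in WT, a fold of 0.981. Hadh, the 3-hydroxyacyl-CoA dehydrogenase, was at 15.3 ± 1.56 CPM in KO and 14.7 ± 0.889 CPM in WT, a fold of 1.04. Acaa2, the thiolase that ends the cycle, was the most abundant of the later enzymes by FPKM, at 23.9, 24.8 and 21.7 CPM in KO libraries and 20.7, 23.8 and 21.1 CPM in WT libraries, a fold of 1.07 (SD, n = 3 each, for the others; edgeR adjusted p = 0.751 to 0.908). That place depends on the length used. Per kilobase of the longest coding transcript, Acaa2 was at 15.5 CPM in KO and 14.4 CPM in WT. Echs1, at 62.1 and 63.3, and Hadha, at 24.8 and 24.7 CPM per kb, stood above it.

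Unsaturated fatty acids need isomerases and a reductase before they can pass through the cycle. The isomerase gene Eci1 was at 9.90 ± 1.26 CPM in KO and 9.53 ± 0.462 CPM in WT (SD, n = 3 each). The other isomerase gene, Eci2, was at 21.9, 24.5 and 21.4 CPM in KO libraries and 21.2, 25.5 and 24.7 CPM in WT libraries. The dienoyl-CoA reductase gene Decr1 was at 18.5, 21.7 and 16.5 CPM in KO libraries and 17.5, 19.4 and 19.4 CPM in WT libraries. KO library 2 was the highest KO library for all of these, and the groups overlapped. Their folds were 1.04, 0.951 and 1.01, with an edgeR adjusted p of at least 0.857. Electrons from the dehydrogenases pass through the electron transfer flavoprotein, encoded by Etfa and Etfb, and its ubiquinone oxidoreductase, encoded by Etfdh. Etfa was at 66.5, 65.2 and 64.1 CPM in KO libraries and 61.2, 66.3 and 68.6 CPM in WT libraries. Etfdh was at 41.5, 40.1 and 39.1 CPM in KO libraries and 41.5, 39.7 and 36.5 CPM in WT libraries. Etfb was at 32.0 ± 4.50 CPM in KO and 32.0 ± 1.88 CPM in WT (SD, n = 3 each). The folds of Etfa, Etfb and Etfdh were 0.998, 0.999 and 1.03 (edgeR adjusted p = 0.901 to 0.998). KO library 2 held the lowest Etfb value, 26.8 CPM. Etfb shares 43.8% of its 50-base sequences with Gm45233, a gene on the same strand that overlaps it, so its level is the least certain of the set.

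The peroxisomal enzymes gave a non-overlapping member in each direction. Crot encodes the octanoyltransferase that exports shortened chains from peroxisomes as carnitine esters. It was at 25.2, 25.0 and 27.6 CPM in KO libraries, against 24.0, 23.9 and 22.5 CPM in WT libraries, a fold of 1.10 (interval 0.986 to 1.24; edgeR adjusted p = 0.544). Ehhadh encodes the peroxisomal bifunctional enzyme, a strongly PPARα-dependent gene in mouse liver. It had 106, 100 and 140 counts in KO libraries, against 131, 168 and 154 counts in WT libraries. The level was 1.42, 1.37 and 1.91 CPM in KO libraries and 1.93, 2.26 and 1.96 CPM in WT libraries, so the groups did not overlap, though KO 3 came close to WT 1. It had a fold of 0.765 (interval 0.534 to 1.09; edgeR adjusted p = 0.613).

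Hsd17b4, the D-bifunctional enzyme, was the most abundant peroxisomal member by FPKM, at 96.9, 92.0 and 93.0 CPM in KO libraries and 96.2, 99.4 and 92.9 CPM in WT libraries, which overlapped. Acox3, an acyl-CoA oxidase for branched chains, was at 151, 134 and 134 CPM in KO libraries and 134, 136 and 138 CPM in WT libraries, with KO library 1 above the rest. Acaa1a, a peroxisomal thiolase, was at 47.3 ± 4.21 CPM in KO and 43.7 ± 3.32 CPM in WT (SD, n = 3 each). The folds were 0.977, 1.03 and 1.08 (edgeR adjusted p = 0.714 to 0.870). Acaa1a shares 12.4% of its 50-base sequences with its near copy Acaa1b, and 290 exonic bases with Myd88 on the other strand.

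**Figure D3:**
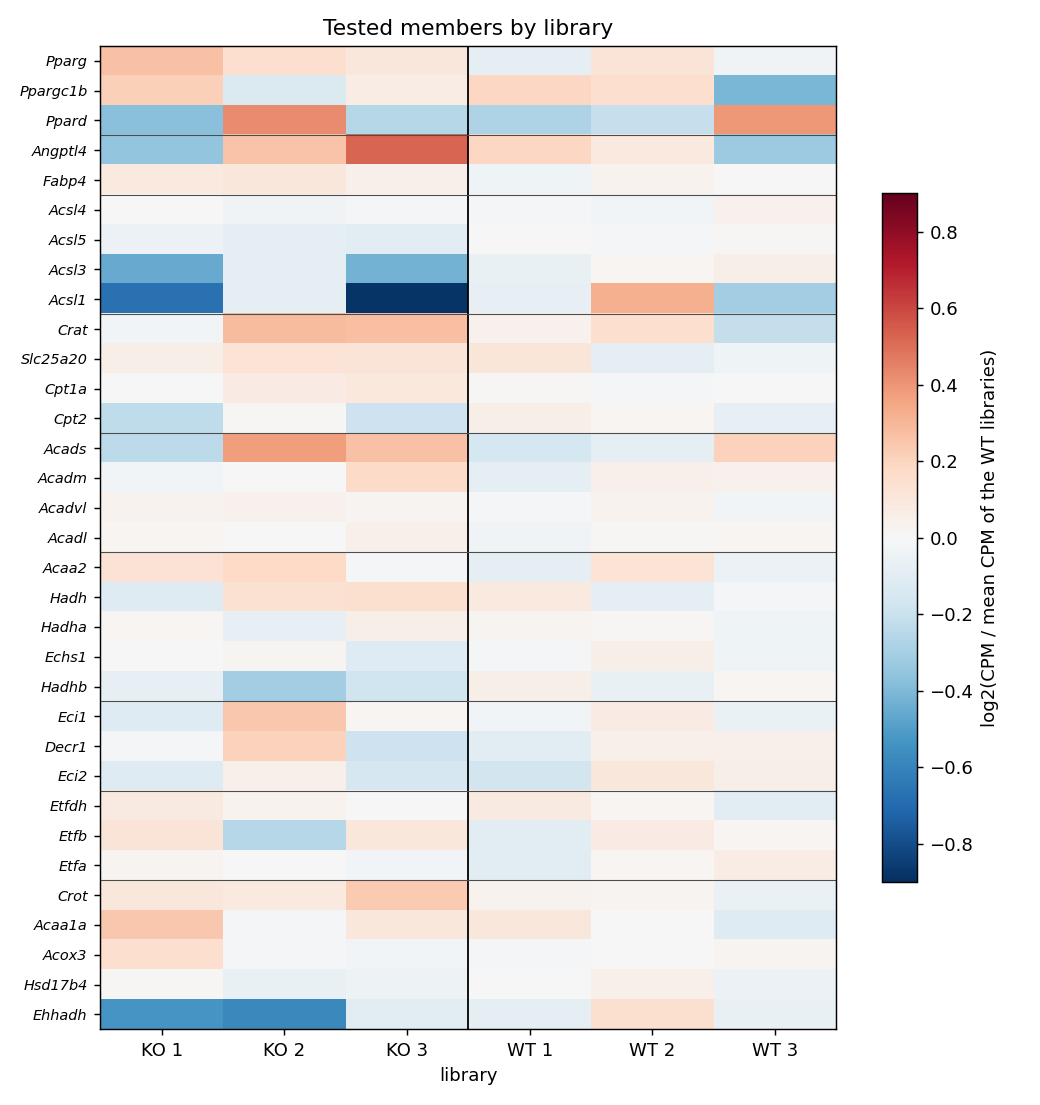
Level of each tested member in each library as log2 of its CPM over the mean CPM of the WT libraries, with KO libraries left of WT and lines between role groups. Acsl1 and Acsl3 in KO 1 and KO 3, Ehhadh in KO 1 and KO 2, Angptl4 in KO 3, and Ppard in KO 2 and WT 3 are among the squares far from 0, and no library is high or low across all members.

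Read by library, the members showed no library that led in all of them. Of the 33 tested members, 6, 9 and 7 had their highest CPM in KO libraries 1, 2 and 3, and 2, 5 and 4 in WT libraries 1, 2 and 3. The lowest CPM fell in KO libraries for 7, 6 and 5 members and in WT libraries for 7, 2 and 6. The median coefficient of variation between libraries of a group was 7.48% in KO and 5.77% in WT over the tested members. Over all tested genes it was 10.5% in KO and 10.96% in WT. These sets were not matched for level. The median of mean FPKM was 8.74 over the 35 members and 0.23 over all 27240 listed genes. Coefficients above 20% were seen for Ppard, Acsl1, Acads and Angptl4 in KO and for Ppard, Acsl1 and Ppargc1b in WT.

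Levels spanned several orders of magnitude. By deposited FPKM, Acadl was the highest member, at 80.2 ± 1.39 FPKM in KO and 78.4 ± 1.21 FPKM in WT, followed by Fabp4 at 54.8 ± 1.07 FPKM in KO and 51.4 ± 1.003 FPKM in WT (SD, n = 3 each). By the mean over all 6 libraries, Acsl4, Etfa, Acsl5, Cpt1a, Hsd17b4 and Etfb came next, between 24.6 and 35.2 FPKM in both groups, though Acsl1, at 18.5 ± 5.51 FPKM in KO and 26.1 ± 5.78 FPKM in WT (SD, n = 3 each), lay above Hsd17b4 and Etfb in WT. A mean of at least 1 FPKM was reached by 30 of the 35 members, and Acsl3, Ehhadh, Angptl4, Pdk4 and Ppara lay below it. This order depends on the length used. The deposited FPKM tracked the length of all exons of a gene joined together, which for Fabp4 is 4489 bases against 896 for its longest coding transcript, and for Echs1 8286 against 1557. Per kilobase of the longest coding transcript, Fabp4 stood first, at 304 CPM per kb in KO and 288 CPM per kb in WT, and Acadl second, at 93.1 and 91.7 CPM per kb. Echs1 moved from place 14 by FPKM to place 4, and Ppard, at 25.7 CPM per kb in KO and 26.2 CPM per kb in WT, stood above Pparg, at 19.2 and 17.0 CPM per kb.

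**Figure D4:**
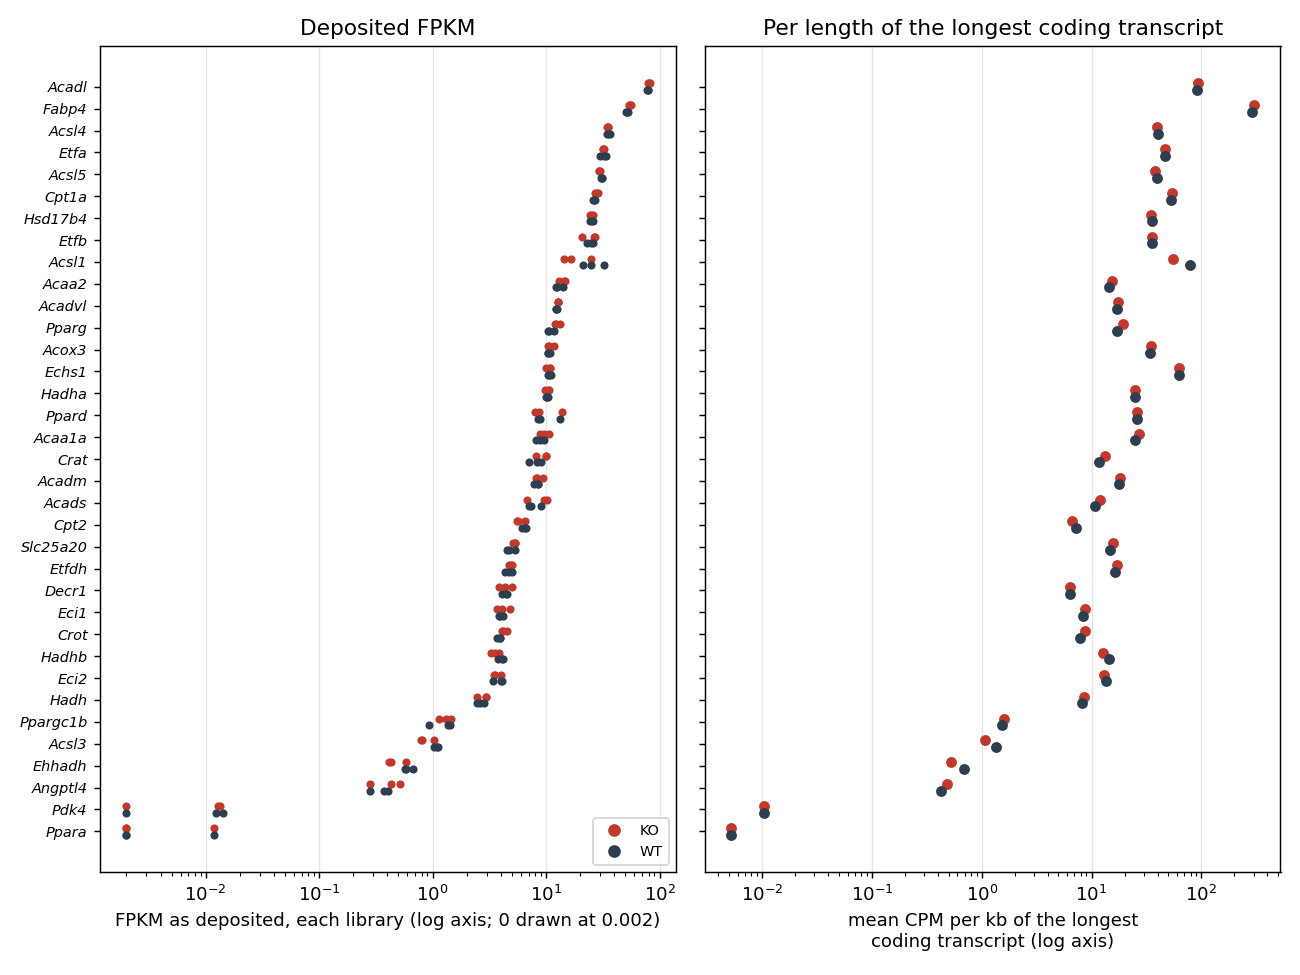
Left, deposited FPKM of the 35 members in each library on a log axis, KO drawn above WT in each row, with values of 0 drawn at 0.002; right, mean CPM per kilobase of the longest coding transcript, also on a log axis. Fabp4, Echs1 and Acsl1 move to the right of their neighbours on the second scale.

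Other genes of the pathway were taken from a list of 75 genes, of which 71 were analysed here and 61 tested. Cd36 alone passed the test over all genes. It encodes the fatty acid and oxidised lipoprotein receptor and is itself a PPARγ target. Cd36 was at 2833, 2826 and 2862 CPM in KO libraries, against 2372, 2497 and 2461 CPM in WT libraries. The groups were well apart, with a fold of 1.16 (log2 fold change 0.22, SE 0.02; edgeR adjusted p = 0.0405), but the call was lost in 10 of 15 alternative fits (adjusted p = 3.8e-05 to 0.193 over all of them, with a log2 fold change of 0.20 to 0.23), among them those without KO replicate 1, 2 or 3 and WT replicate 1 or 3 (0.053 to 0.183). Of the list, 11 of the 61 had an unadjusted p under 0.05, 7 of them higher and 4 lower in KO, a share of 18.03% against 10.4% of all genes. The groups did not overlap for 12 of the 61 with KO higher and for 3 of the 61 with KO lower. Over all genes tested these shares were 8.68% and 8.89%. The list was chosen with earlier results of these data known. It was also not matched to all genes for expression level, so its shares are a description only.

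Among the other PPAR targets, Fabp3, which encodes the heart-type fatty acid binding protein, was at 52.8, 48.7 and 48.9 CPM in KO libraries, against 67.2, 66.1 and 64.0 CPM in WT libraries, a fold of 0.763 (edgeR adjusted p = 0.0756). Plin2, Hilpda, Ucp2 and Tgm2 were picked after their values were seen. The lipid droplet coat gene Plin2 was at 1604 ± 16.3 CPM in KO and 1351 ± 68.6 CPM in WT, and Hilpda, which encodes an inhibitor of droplet lipolysis, at 71.1 ± 1.54 CPM in KO and 55.0 ± 2.56 CPM in WT (SD, n = 3 each; edgeR adjusted p = 0.0756 for both). Ucp2, which encodes a mitochondrial carrier, was at 110 ± 7.55 CPM in KO and 133 ± 6.69 CPM in WT (SD, n = 3 each; edgeR adjusted p = 0.173). The groups did not overlap for Fabp3, Plin2, Hilpda, Ucp2 or Tgm2. DESeq2 called 7 genes of the list, Cd36, Plin2 and Hilpda as higher and Fabp3, Ucp2, Tgm2 and Acadsb as lower, where it called 3.57% of the 12762 genes to which it gave an adjusted p. Tgm2, which encodes a transglutaminase, was at 357 ± 14.8 CPM in KO and 403 ± 11.9 CPM in WT (SD, n = 3 each; edgeR adjusted p = 0.205). Without WT replicate 2 edgeR called Cd36 and Plin2.

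Outside the targets no gene of the list passed in edgeR. Abcd2, a peroxisomal fatty acyl-CoA transporter, was at 14.3 ± 0.771 CPM in KO and 11.9 ± 0.649 CPM in WT (adjusted p = 0.363). Slc27a1, a fatty acid transport protein, was at 147 ± 5.42 CPM in KO and 134 ± 5.59 CPM in WT (adjusted p = 0.409), and the receptor coactivator Ncoa2 at 77.2 ± 1.22 CPM in KO and 71.3 ± 1.88 CPM in WT (adjusted p = 0.433; SD, n = 3 each, edgeR throughout). The groups did not overlap for any of these. Acadsb, the dehydrogenase of short branched chains, was at 24.2, 26.5 and 27.3 CPM in KO libraries and 43.4, 26.5 and 41.0 CPM in WT libraries, where WT 2 lay among the KO values (edgeR adjusted p = 0.367). Prkaa1, a catalytic subunit of AMP-activated kinase, was at 104 and 97.8 CPM in KO and WT, without overlap (edgeR adjusted p = 0.544). The most abundant genes of their groups by FPKM, beside Cd36, were Rxra, Acot13 and Scp2, and their groups overlapped. Rxra, the receptor partner, was at 189 ± 4.33 CPM in KO and 191 ± 1.13 CPM in WT, and the thioesterase gene Acot13 at 18.9 ± 0.838 CPM in KO and 18.4 ± 0.523 CPM in WT (SD, n = 3 each). Scp2, a sterol carrier and peroxisomal thiolase gene, was at 85.7 ± 1.05 CPM in KO and 80.6 ± 4.87 CPM in WT (SD, n = 3 each).

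**Figure D5:**
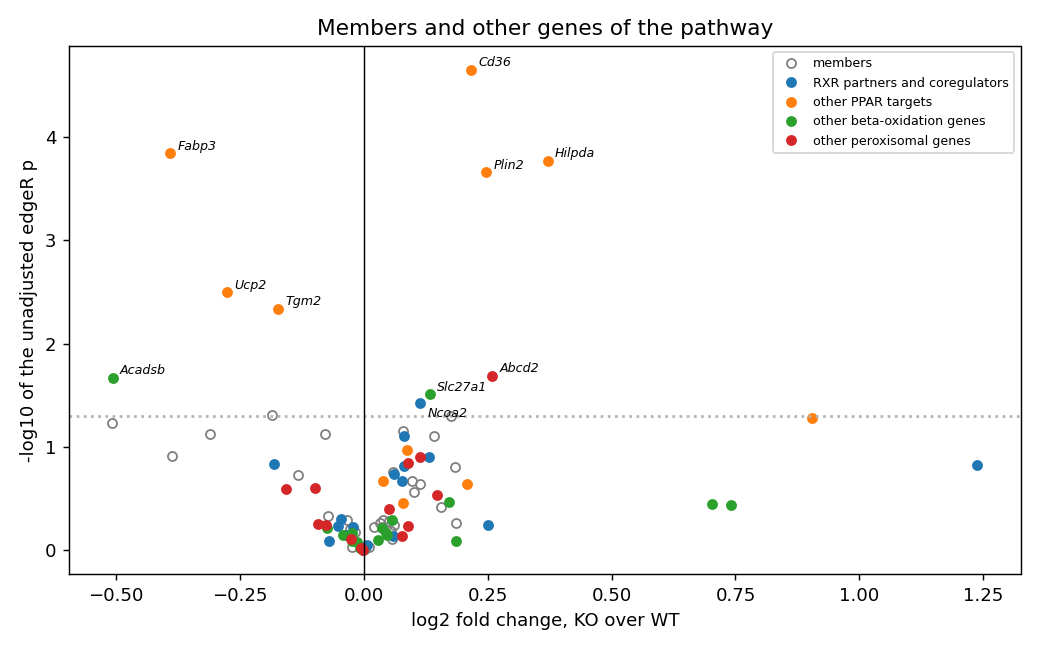
Log2 fold change of KO over WT against -log10 of the unadjusted edgeR p for the 33 tested members (open circles) and the other tested genes of the pathway that are reported here (filled, by group); the dotted line marks an unadjusted p of 0.05. The members gather near 0, while Cd36, Fabp3, Hilpda and Plin2 stand highest.

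Across the series, a library held between 72559141 and 74172804 counts in KO and between 68053008 and 79090732 in WT. Low counts gathered at multiples of 4. A count of 4 was held by 1005 to 1159 genes a library, against 516 to 583 genes with a count of 1, 423 to 488 with a count of 2, 245 to 296 with a count of 3 and 172 to 203 with a count of 5. The counting tool is not given, and how many fragments stand behind a count is not known. Dclk1 was at 5.53 ± 0.370 CPM in KO and 7.13 ± 0.383 CPM in WT (SD, n = 3 each; edgeR adjusted p = 0.332), and counts summed over a gene cannot tell whether an exon is missing. Of 8 macrophage markers, 6 had a fitted value below 0 and 1, Lyz2, passed the test. Beside this and the marker groups below, 49.5% of all genes tested had a fitted value above 0 and 0.0677% passed. Cd68 was at 1993 CPM in KO and 1994 CPM in WT and Adgre1 at 1016 CPM in KO and 1057 CPM in WT, and both overlapped. Itgam, at 513 ± 91.6 CPM in KO and 327 ± 91.4 CPM in WT (SD, n = 3 each; edgeR adjusted p = 0.344), and Csf1r, at 965 ± 4.45 CPM in KO and 1021 ± 33.0 CPM in WT (SD, n = 3 each; edgeR adjusted p = 0.394), did not overlap. Lyz2 was at 7970 ± 42.0 CPM in KO and 16349 ± 652 CPM in WT (SD, n = 3 each; edgeR adjusted p = 6.47e-06). It has a near copy, Lyz1, and the part of shared reads in its value was not tested. Of 9 fibroblast and mesothelial markers, 7 had a fitted value below 0. The summed level of the 9 was 78.6 ± 6.57 CPM in KO and 97.6 ± 2.47 CPM in WT (SD, n = 3 each). These markers did not move together. Dcn, Pdgfra and Krt19 were lower in KO without overlap, and the groups of most others overlapped. Wt1 was higher in KO without overlap, at 1.37 ± 0.0844 CPM in KO and 0.90 ± 0.0166 CPM in WT (SD, n = 3 each). Of all genes tested, 8.89% were lower and 8.68% higher without overlap. The 4 T cell markers summed to 5.14 ± 0.408 CPM in KO and 6.91 ± 0.619 CPM in WT, and the 4 mast cell markers to 3.06 ± 0.724 CPM in KO and 4.55 ± 0.232 CPM in WT (SD, n = 3 each), with all fitted values below 0 and 0 past the threshold in edgeR. Cd3g and Cma1 were those whose groups did not overlap. The part of these cells in the values above was not tested.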

How the data were processed

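The deposited table holds whole-number counts and FPKM per gene and library, per the file headers. The authors' FPKM values are scaled for gene length and library size, per the file headers. Per the submitters' processing notes, HISAT2 2.0 was used. The counting tool, its strand setting, the annotation and the build were not given in the sources used here. GENCODE M21 held 27169 of the 27240 listed IDs, 24474 of them at identical coordinates, and GRCm38 was therefore taken as the build. The table has 12 other per-sample columns whose names fit no labelled sample, and they were left out.

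The filter filterByExpr kept 16239 genes. After TMM scaling, edgeR 4.0.16 (R 4.3.3) compared KO with WT by its two-sided quasi-likelihood test without covariates, with Benjamini-Hochberg adjustment over all genes, called at 0.05. The fit was run on simulated counts with known folds as a check of the code. That check set conditions only for large folds and for unchanged genes, not for folds as small as those of the members. Its counts also lacked the gathering of low counts described above. Fold changes are KO over WT and intervals are at the 95% level. Within a group, chi-square over degrees of freedom between any 2 libraries was 36.7 to 42.8, and no library was treated as a duplicate. Members and lists were chosen with earlier results of these data known. All members are reported, with values in every library for the receptors, for the member of smallest p and of highest FPKM in each role, and for further members of small role groups. Of the other pathway genes, those past the threshold, the 2 of smallest p and the most abundant of each role are named, except 1 gene that is counted but not reported here. Shared sequences of 50 bases and exon overlaps come from GENCODE M21, and promoters from RefSeq (GRCm38.p6). Alternatives were no filter, a filter of 1 CPM in 3 libraries, RLE size factors, DESeq2 1.42.0, limma 3.58.1 on log2(FPKM + 1) with a filter of 1 FPKM in 3 libraries, on log2(FPKM + 0.1) and without that filter, the replicate number as a block, leaving out each library and, chosen after the data were seen, counts divided by 4.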

Additional observations from a re-analysis of the deposited data

How the results depend on the processing

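No member passed the threshold under any of the 15 alternatives, and their median log2 fold change lay between 0.015 and 0.045, each value within the spread between libraries of the main value of 0.03. Over all genes 11 passed. That count was 7 without a filter, 455 with DESeq2, 3 with limma on log2(FPKM + 1) without a filter and 3 with the replicate block, and 7 to 35 when single libraries were left out, where WT replicate 1 gave 7, WT replicate 2 gave 24 and KO replicate 1 gave 35. Of the other pathway genes 1 passed. That count was 0 without a filter, 7 with DESeq2, 0 with limma on log2(FPKM + 1), on log2(FPKM + 0.1) and without the FPKM filter, 0 with the replicate block, and 0 to 2 when single libraries were left out. It was 0 when KO replicate 1, 2 or 3 or WT replicate 1 or 3 was left out, and 2 without WT replicate 2. The cause of these shifts was not tested.

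The replicate numbers are not stated to pair the libraries. Deviations of same-numbered libraries from their group means correlated at 0.0397, 0.0497 and 0.0146, and those of differently numbered libraries at -0.0542 to 0.0115. All of these are small. Each library correlated best with its own number, but for KO 3 by little, at 0.0146 with WT 3 and 0.0115 with WT 1. This is at most a weak hint from the data and not the design. Dividing the counts by 4, chosen after the data were seen, gave 13 genes in all and 0 members. Ppara and Pdk4, with at most 4 counts in any library, were left untested by the filter on low counts.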
